A study of Mus musculus with 52 samples.

Results

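The 42 genes described here drive DNA replication and cell division: 23 act in mitosis, 17 act in S phase, and Foxm1 and E2f1 are transcription factors of the cycle. They were taken by gene name from a list made with earlier results of these data known, with no threshold on a measured value, and all 42 were found in each of the 8 tissues measured, among 39144 genes listed in any tissue. RNA sequencing compared wild-type male mice with males homozygous for the allele Tug1_tm1.1Vlcg (Tug1 knockout), in which a lacZ cassette replaces the gene body of the long noncoding RNA Tug1 and the promoter is kept. Eyes, heart, liver and spleen had 3 samples per genotype. Prostate had 3 wild-type and 2 knockout samples, and these tissues were on a C57BL/6J/129S6 background (N3-C57BL/6J, no Neo). Mouse embryonic fibroblasts (MEFs), mesenchymal cells grown from male littermate embryos and taken at passage 2, had 3 samples per genotype on the same background. Testes had 4 wild-type, 4 knockout and 3 rescue samples. All 3 groups are labelled C57BL/6J/129S6, and in brackets C57BL/6J, with no Neo for the wild type and with Neo and LacZ for knockout and rescue. The Neo label therefore differed between wild-type and knockout testes, and its part cannot be told apart from that of the knockout. Rescue mice were Tug1 knockouts that also carried a Tug1 transgene, which lacks part of the 5′ region, and CAGs-rtTA3, a broadly active switch for that transgene, and they ate doxycycline food from conception on. A brain comparison came from libraries outside the series, and the number of brain samples was not used here. The organs came from adult mice, whose ages behind the RNA samples are not stated in the labels or the methods text, and 6 testis samples of F1 hybrid mice were not analysed here.

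A dividing cell copies its DNA in S phase and separates the copies in mitosis. Replication begins when Cdc6 and Cdt1 load the ring of Mcm2 to Mcm7 on DNA. Cdc45 and the GINS complex then switch this helicase on, Pcna clamps the polymerases to the template, and ribonucleotide reductase and thymidylate synthase supply the nucleotides. The E2F factors turn these genes on as cells leave G1. Cyclin B with Cdk1 starts mitosis, Foxm1 and related factors turn the mitotic genes on in G2, and Cdc20 and Ube2c end mitosis by marking cyclin B for destruction. Resting cells of adult organs hold little of these RNAs, so that a tissue's level tends to follow its share of cycling cells. Among adult organs, spleen holds dividing lymphocytes and, in mice, dividing erythroid precursors, and testis holds spermatogonia and the meiotic spermatocytes, which use many mitotic proteins for the meiotic divisions.

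The mitotic and S-phase genes differed in the letters of their promoters. A link between these letters and the levels or ratios below was not tested. Promoter windows of 250 bases before to 50 after the start of transcription (RefSeq, GRCm38.p6) matched 34 of the 42 genes. Each window was searched on both strands for CCAAT (the box bound by NF-Y), for TTTGAA and TTCGAA (the cell cycle homology region), and for TTTGGCGC, TTTCGCGC and TTCCCGCC (E2F words). TTTGGCGC and TTTCGCGC on opposite strands can overlap. The mitotic genes had 21 windows, of which 19 held CCAAT and 17 held TTTGAA or TTCGAA, while 1 held an E2F word (Cdk1). The S-phase genes had 14 windows, of which 10 held CCAAT, 3 held TTTGAA or TTCGAA and 6 held an E2F word. Of all 32851 windows kept, 37.4% held CCAAT, 19.2% held TTTGAA or TTCGAA and 2.96% held an E2F word. These are letter matches, and no binding was measured. For the pattern itself, 4 mitotic windows with both elements and 3 S-phase windows with an E2F word are printed 5′ to 3′, with the matches in capitals. Ccnb2, Cdc20, Plk1 and Cenpf are shown because they return below for their levels in testes or their ratio in MEFs, and Mcm5, Mcm6 and Cdt1 because they return for MEFs and spleen.
Ccnb2, chr9:70421505-70421804, minus strand: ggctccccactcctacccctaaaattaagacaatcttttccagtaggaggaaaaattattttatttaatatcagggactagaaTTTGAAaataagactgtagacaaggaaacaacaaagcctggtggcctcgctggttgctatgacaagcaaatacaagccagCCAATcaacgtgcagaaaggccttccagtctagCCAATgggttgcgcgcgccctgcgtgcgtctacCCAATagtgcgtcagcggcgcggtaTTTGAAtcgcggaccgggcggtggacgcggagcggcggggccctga
Cdc20, chr4:118437294-118437593, minus strand: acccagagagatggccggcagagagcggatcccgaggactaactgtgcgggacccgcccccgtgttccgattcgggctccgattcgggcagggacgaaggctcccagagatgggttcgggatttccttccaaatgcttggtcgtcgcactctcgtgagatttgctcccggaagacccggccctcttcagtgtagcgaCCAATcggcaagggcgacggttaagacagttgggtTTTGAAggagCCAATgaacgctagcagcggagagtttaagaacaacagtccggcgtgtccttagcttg
Plk1, chr7:122159185-122159484, plus strand: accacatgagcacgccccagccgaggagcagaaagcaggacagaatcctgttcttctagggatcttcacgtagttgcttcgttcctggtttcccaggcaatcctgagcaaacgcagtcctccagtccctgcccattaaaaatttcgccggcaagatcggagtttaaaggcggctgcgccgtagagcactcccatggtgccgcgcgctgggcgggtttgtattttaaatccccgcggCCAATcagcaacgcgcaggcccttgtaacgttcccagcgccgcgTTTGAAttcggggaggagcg
Cenpf, chr1:189688037-189688336, minus strand: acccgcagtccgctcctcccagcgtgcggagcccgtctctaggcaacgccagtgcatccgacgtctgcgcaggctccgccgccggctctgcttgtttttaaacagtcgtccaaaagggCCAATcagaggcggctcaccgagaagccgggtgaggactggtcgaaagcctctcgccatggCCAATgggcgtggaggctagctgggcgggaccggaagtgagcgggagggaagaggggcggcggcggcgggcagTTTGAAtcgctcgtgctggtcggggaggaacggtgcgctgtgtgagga
Mcm5, chr8:75109259-75109558, plus strand: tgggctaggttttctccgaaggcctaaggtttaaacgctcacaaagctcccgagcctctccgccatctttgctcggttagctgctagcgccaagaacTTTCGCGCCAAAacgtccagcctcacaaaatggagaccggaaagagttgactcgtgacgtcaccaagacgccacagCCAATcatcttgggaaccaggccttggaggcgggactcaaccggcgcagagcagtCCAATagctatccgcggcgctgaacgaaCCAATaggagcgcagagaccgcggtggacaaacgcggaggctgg
Mcm6, chr1:128359656-128359955, minus strand: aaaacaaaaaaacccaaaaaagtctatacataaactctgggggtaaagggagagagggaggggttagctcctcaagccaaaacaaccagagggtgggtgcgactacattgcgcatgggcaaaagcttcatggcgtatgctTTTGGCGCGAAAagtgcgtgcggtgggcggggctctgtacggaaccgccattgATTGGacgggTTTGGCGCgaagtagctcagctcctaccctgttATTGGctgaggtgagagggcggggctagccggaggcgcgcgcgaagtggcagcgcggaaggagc
Cdt1, chr8:122567765-122568064, plus strand: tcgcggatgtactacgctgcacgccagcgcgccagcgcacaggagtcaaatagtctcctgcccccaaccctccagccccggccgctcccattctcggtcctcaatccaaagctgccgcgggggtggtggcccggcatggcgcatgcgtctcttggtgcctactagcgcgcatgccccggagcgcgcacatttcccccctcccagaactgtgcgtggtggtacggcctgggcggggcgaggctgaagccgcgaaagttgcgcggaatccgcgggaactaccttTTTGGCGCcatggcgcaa
In Ccnb2 (cyclin B2), Plk1 and Cenpf a TTTGAA follows the last CCAAT, and in Cdc20 it lies between a pair of CCAAT. In Mcm5 and Mcm6 the capitals include a run where TTTCGCGC and TTTGGCGC overlap on opposite strands, ATTGG in Mcm6 is CCAAT read on the other strand, and in Cdt1 the single match lies past the start.

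Values are the authors' mean of each group in TPM, a measure of transcript abundance that corrects for gene length and sums to the same total in each sample. No value of a single sample was at hand and the authors' own test statistics were not used, so no SD, test or p-value is given. Whether any difference exceeds the spread between mice was therefore not judged. A ratio is the log2 of knockout over wild type after 0.1 TPM was added to both. A gene counts as past the fold at 1.5-fold or more. Counts and medians cover genes with a mean of both groups of at least 1 TPM. Where a 95% interval is printed, it covers counting error only, from the reads behind the gene. Knockout Tug1 was between 0.0825% (liver) and 2.21% (testes) of the wild-type mean, and rescue testes held 4.0%. The tissues were covered by 38666994 (MEFs) to 48341823 (eyes) normalized reads per library and brain by 17573743, while the depth in testes is unknown. The median log2 ratio over all genes was -0.11 in spleen, -0.11 in eyes and 0.10 in heart, so members there are also read against that shift. It lay between -0.02 and 0.05 in MEFs, testes, prostate, liver and brain. All 42 genes entered the counts in MEFs, spleen and testes, against 39 in eyes, 36 in prostate, 29 in brain, 23 in heart and 17 in liver.

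In the wild type, MEFs, spleen and testes had the highest sums of both groups among the 8 tissues, in different proportions. The mitotic genes summed to 840 TPM in MEFs, 658 in spleen and 1333 in testes, and to 10.8 (liver) to 93.9 TPM (eyes) elsewhere. The S-phase genes summed to 742 TPM in MEFs, 883 in spleen and 411 in testes, and to 58.1 (liver) to 226 TPM (eyes) elsewhere. Mitotic over S-phase RNA was thus 3.24 in testes, 1.13 in MEFs and 0.745 in spleen, and from 0.187 in liver and brain to 0.618 in heart. The ratio of their medians was 2.97 in testes, 0.7004 in MEFs and 0.632 in spleen, and from 0.159 in liver to 0.518 in prostate, so MEFs lay on either side of 1 by the measure taken. TPM was normalised separately in each tissue, so these levels are shares of each tissue's own RNA.

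Testes were the tissue of highest level for 14 of the 23 mitotic genes but for 3 of the 17 S-phase genes. The mitotic level in testes exceeded that in MEFs for 16 of 23 genes, with a median of 1.42-fold, while the S-phase level did so for 4 of 17, with a median of 0.323-fold. Ccnb2 had the highest mitotic level of any tissue, at 238 TPM in testes against 47.1 in MEFs and 51.7 in spleen. The anaphase activator Cdc20 stood at 150 TPM in testes and the spindle kinase Aurka at 146 TPM. Foxm1, the G2 transcription factor, was at 105 TPM in testes, 22.1 in MEFs and 11.3 in spleen, and it overlaps Tex52 by 691 bases on the same strand. The checkpoint kinase Bub1 was at 61.5 TPM in testes, against 22.6 in MEFs. The kinase Ttk, another part of the checkpoint, was at 38.4 TPM in testes against 7.89 in MEFs and 4.72 in spleen. Not every mitotic gene was high in testes: Cenpa, the histone variant of centromeres, was at 1.97 TPM there against 17.1 in MEFs and 26.9 in spleen.

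S-phase genes were uneven in testes. Mcm7 stood at 101 TPM there, while the other subunits of the same helicase lay between 4.61 TPM (Mcm2) and 16.4 TPM (Mcm5). In spleen the 6 subunits lay between 35.9 and 78.9 TPM, and in MEFs between 28.0 and 62.3 TPM. Mcm7 overlaps Ap4m1 by 421 bases and Cops6 by 64 bases on the opposite strand, and the library kit marks no strand. The nucleotide enzymes Tyms and Rrm2 were at 1.33 and 16.2 TPM in testes, against 14.9 and 120 TPM in MEFs. Cdt1, the loading factor, was at 2.09 TPM in testes and 38.3 TPM in spleen. Cyclin A2 (Ccna2), the cyclin of S phase and G2 in somatic cells, was at 5.37 TPM in testes against 39.9 in MEFs. Ccna1, its germline relative and no member, was at 185 TPM in testes.

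**Figure D1:**
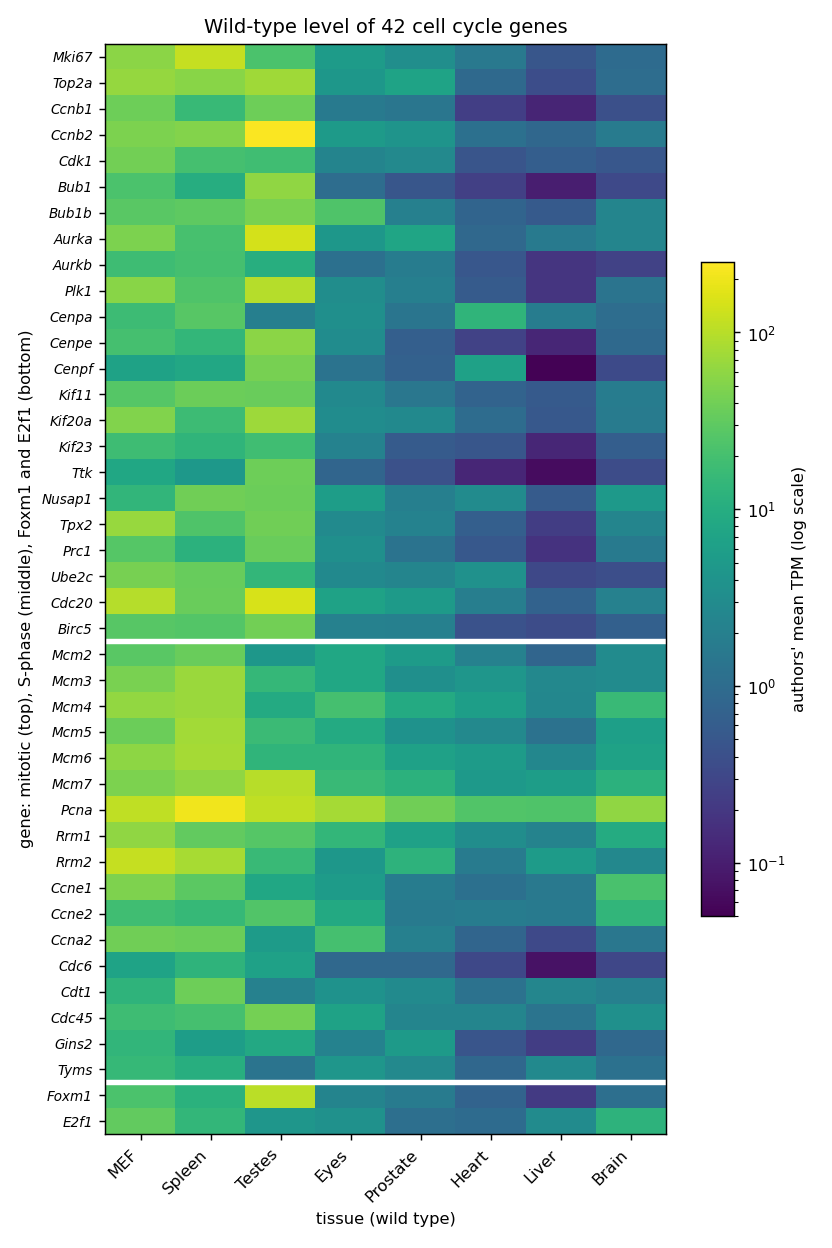
Wild-type level of the 42 genes (rows: 23 mitotic, 17 S-phase, Foxm1 and E2f1) in 8 tissues (columns), as the authors' mean TPM on a log colour scale. The columns of MEFs, spleen and testes are bright, Ccnb2 reaches 238 TPM in testes, and Pcna keeps 24.3 TPM or more in all tissues.

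In the 5 other tissues a few genes stood apart from their group. Pcna was between 24.3 TPM (liver) and 79.9 TPM (eyes), the highest S-phase level in each of them. Bub1b, a checkpoint kinase, was at 24.3 TPM in eyes, where the median mitotic gene was at 3.12 TPM, and Ccna2 was at 20.6 TPM there. In heart Cenpa was at 13.0 TPM and the kinetochore protein Cenpf at 6.53 TPM, where the median mitotic gene was at 0.748 TPM. Brain held cyclin E1 (Ccne1) at 21.6 TPM and cyclin E2 (Ccne2) at 13.5 TPM, the pair that drives cells into S phase, while Cdc6 was at 0.303 TPM. E2f1 was at 12.2 TPM in brain, above its 4.34 TPM in testes. Ccna2 overlaps Exosc9 by 863 bases and Ccne2 overlaps Ints8 by 5622 bases on the opposite strand, so reads there may belong to the neighbour. No overlap was found for Bub1b, Cenpa or Ccne1.

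In spleen all 42 genes had a higher mean in the knockout. The mitotic genes were higher by a median log2 of 0.84 (a 1.79-fold sum, from 658 to 1180 TPM) and the S-phase genes by 0.62 (1.54-fold, from 883 to 1357 TPM). Past 1.5-fold were 20 of 23 mitotic genes, 9 of 17 S-phase genes, and both Foxm1 and E2f1, while 4.99% of all 16810 genes were past it in this direction and 29.6% of all genes were above 0. No member was past it downward, where 4.37% of all genes were. Relative to the median of all genes the medians were 0.94 and 0.73. The counting interval of no member held 1, with 434 to 26648 reads per library behind each. Counting error is thus small here, while the spread between mice was not judged.

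Among the markers of proliferation, Mki67, the Ki-67 antigen of cycling cells, went from 117 TPM in wild-type spleen to 233 TPM in knockout spleen, a log2 ratio of 1.0 (counting interval 1.98 to 2.02-fold). Birc5 (survivin), the passenger protein that targets Aurora B, had the highest mitotic ratio, from 25.7 to 52.2 TPM (1.02). Top2a, which untangles sister chromatids, went from 54.6 to 94.8 TPM (0.79). All 6 mitotic kinases and cyclins were past the fold. Ccnb1 and Ccnb2, the B-type cyclins, went from 15.5 to 29.0 and from 51.7 to 99.8 TPM. Their partner Cdk1 went from 20.6 to 37.1 TPM. Aurka, Aurkb and Plk1, kinases of spindle and cleavage, went from 20.7 to 37.7, from 20.3 to 35.1 and from 23.6 to 44.1 TPM. These ratios all lie between 0.79 and 0.95 on the log2 scale.

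The checkpoint and kinetochore genes were higher by less even amounts. Bub1 went from 10.2 to 20.5 TPM (log2 1.0), but Bub1b, its relative in the same checkpoint, from 30.4 to 45.05 TPM (0.57), just under the fold. Ttk, which starts the checkpoint, went from 4.72 to 7.76 TPM (0.71). At the kinetochore, where chromosomes meet the spindle, Cenpa went from 26.9 to 38.9 TPM (0.53), the lowest mitotic ratio. The motor Cenpe went from 14.3 to 24.7 TPM (0.79) and Cenpf from 8.35 to 15.4 TPM (0.88). Of the spindle proteins, the motors Kif11 and Kif20a went from 37.3 to 63.4 TPM and from 17.3 to 30.4 TPM. Kif23, a motor of the cleavage furrow, went from 13.2 to 19.3 TPM (0.54) and was the only one of the 6 under the fold. The microtubule-binding proteins Nusap1, Tpx2 and Prc1 had log2 ratios of 0.76, 0.90 and 0.86. Ube2c and Cdc20, of the anaphase-promoting complex, went from 34.3 to 61.3 TPM (0.84) and from 36.2 to 56.5 TPM (0.64).

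The S-phase genes ranged widely, also within a role. Of the cyclins, Ccna2 went from 37.3 to 75.1 TPM (log2 1.01), Ccne2 from 15.0 to 30.2 TPM (1.01) and Ccne1 from 29.4 to 45.4 TPM (0.62). Rrm2, the cycle-dependent subunit of ribonucleotide reductase, went from 82.0 to 170.1 TPM (1.05). Its partner Rrm1 went from 32.5 to 53.0 TPM (0.70), and Tyms, which makes thymidylate, from 10.3 to 19.0 TPM (0.88). The 6 subunits of the helicase ring ran from 0.47 (Mcm4, 70.2 to 96.9 TPM) to 0.67 (Mcm2, 35.9 to 57.2 TPM), and Mcm2 alone was past the fold. Mcm3, Mcm5, Mcm6 and Mcm7 had log2 ratios of 0.49, 0.56, 0.58 and 0.58. Pcna, at 210 TPM the most abundant member in wild-type spleen, went to 281 TPM (0.42). The loading factors went apart, with Cdc6 having the highest ratio of all 42 genes, from 12.7 to 26.6 TPM (1.07), and Cdt1 the lowest, from 38.3 to 43.2 TPM (0.17). Cdc45 and Gins2, which switch the helicase on, went from 20.0 to 34.0 TPM (0.76) and from 5.67 to 8.41 TPM (0.56). Foxm1 went from 11.3 to 17.6 TPM and E2f1 from 14.1 to 21.4 TPM.

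**Figure D2:**
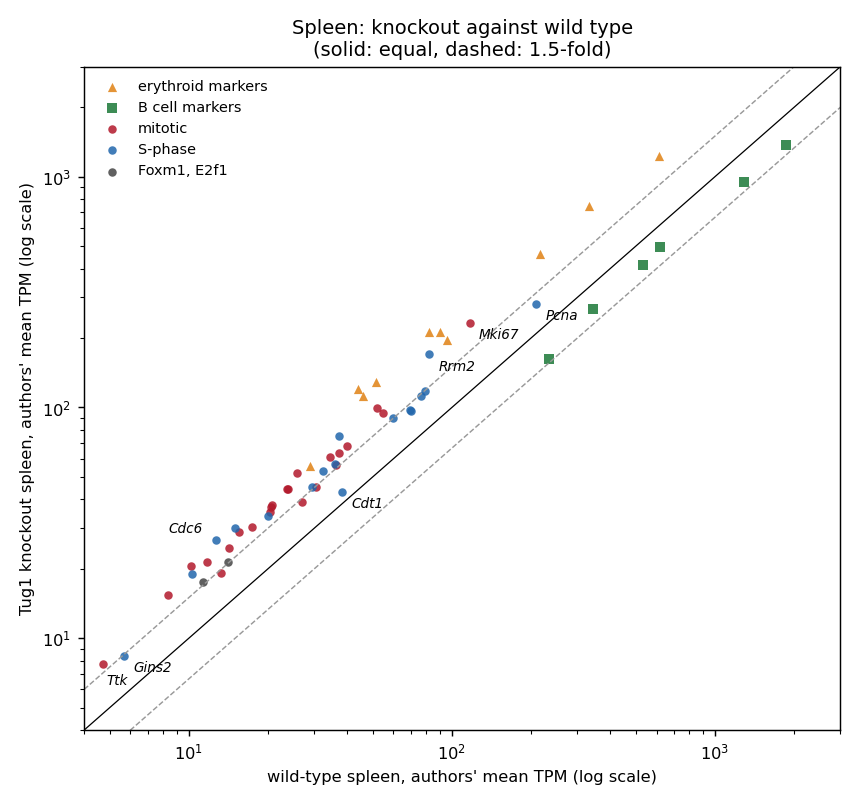
Knockout against wild-type spleen, as the authors' mean TPM on log axes, with 1 point per gene. All 42 cell cycle genes (circles) and the 10 erythroid markers (triangles) lie above the line of equal level, the 6 B cell markers (squares) lie below it, and Cdt1 is the cell cycle gene nearest to the line.

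Other genes of the same processes had the same direction in spleen. Of 51 other mitotic genes, 50 were higher in the knockout (median log2 0.76) and 39 were past the fold. Sgo1, the protector of centromere cohesion, went from 8.11 to 17.4 TPM, and the mitotic kinase Pbk from 18.4 to 38.6 TPM. Of 38 other replication genes, 37 were higher (0.51) and 13 past the fold. The 13 G1 cyclins, their kinases and the cyclin-dependent kinase inhibitors did not share this: their median was -0.00 (6 of 13 above 0) and none was past the fold.

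Markers of several blood lineages moved with the cell cycle genes in spleen. All 10 erythroid markers were past the fold upward (median log2 1.21, sum 1601 to 3476 TPM), with the erythroid factor Klf1 going from 51.5 to 129 TPM. All 5 megakaryocyte markers (0.92, sum 547 to 1064 TPM) and all 5 markers of neutrophil progenitors (1.67, sum 59.9 to 190.5 TPM) were past it too, with Elane going from 20.8 to 67.7 TPM. The 5 germinal centre markers were above 0 (0.42, sum 48.4 to 71.7 TPM), and 2 were past the fold. None of 6 B cell markers was above 0 (-0.41, sum 4889 to 3666 TPM). T cell markers (-0.05, sum 544 to 514 TPM) and macrophage markers (-0.05, sum 2219 to 2153 TPM) were near 0. Pancreas enzymes stood out as RNA of another organ: all 6 were past the fold (9.08, sum 72.8 to 7789 TPM), and Cpa1 went from 1.23 to 671 TPM, which places pancreas RNA in at least 1 knockout library. The hepatocyte marker Alb was at 16.4 TPM in wild-type and 0.0843 TPM in knockout spleen. Which libraries these are cannot be seen in means, and the members could not be recomputed without them. The part of these cell types in the members' ratios was not tested. In whole organs, more cells of a type and more RNA per cell cannot be told apart.

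MEFs had a smaller shift in the same direction. The S-phase genes were higher by a median log2 of 0.34 (16 of 17 above 0) and the mitotic genes by 0.24 (20 of 23), against 0.05 over all genes, of which 59.7% were above 0. No member was past 1.5-fold upward, where 3.09% of all 14450 genes were, and 2 mitotic genes were past it downward, where 3.34% of all genes were. At a ratio of 5 to 4 or more, 12 members were past it upward, where 10.5% of all genes were. The counting interval held 1 for 2 of the 42 genes (Nusap1 and Ccne2).

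The 6 subunits of the helicase ring had ratios in MEFs from 0.30 (Mcm7, 46.5 to 57.2 TPM) to 0.44 (Mcm3, 45.5 to 61.9 TPM). Mcm2, Mcm4, Mcm5 and Mcm6 had log2 ratios of 0.38, 0.32, 0.38 and 0.42. Cdt1 had the highest ratio of all members, from 12.6 to 18.7 TPM (0.56, counting interval 1.38 to 1.59-fold), while in spleen it had the lowest. Its partner Cdc6 went from 6.96 to 8.90 TPM (0.35), and Cdc45 and Gins2 from 17.8 to 22.8 TPM (0.36) and from 13.6 to 16.4 TPM (0.27). Rrm2 went from 120 to 159 TPM (0.40), and Rrm1 and Tyms had ratios of 0.14 and 0.08. Pcna went from 110 to 130 TPM (0.24). Of the cyclins, Ccna2 went from 39.9 to 50.6 TPM (0.34) and Ccne1 from 48.5 to 57.5 TPM (0.24), while Ccne2 was at 18.2 and 17.9 TPM. Foxm1 went from 22.1 to 29.1 TPM (0.40) and E2f1 from 32.4 to 36.5 TPM (0.17).

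Most mitotic genes in MEFs lay in a narrow band, and 3 lay below 0. The kinases and cyclins Ccnb1, Ccnb2, Cdk1, Aurka, Aurkb and Plk1 ran from 0.22 to 0.39, with Aurkb highest (17.9 to 23.6 TPM). Cdc20 went from 96.8 to 117 TPM and Ube2c from 43.7 to 52.7 TPM, both at 0.27. Kif11, Kif20a, Kif23, Tpx2 and Prc1, of the spindle, ran from 0.20 to 0.36, and Nusap1 was at 0.04. Bub1, Bub1b and Ttk were at 0.11, 0.25 and 0.20, and Top2a, Birc5 and Cenpa at 0.25, 0.28 and 0.25. Against this band Cenpf went from 6.84 to 3.75 TPM (-0.85, counting interval 0.518 to 0.581-fold) and Cenpe from 20.3 to 11.9 TPM (-0.76, 0.564 to 0.615-fold). These are the large kinetochore proteins that bind microtubules. Mki67 went from 56.4 to 52.0 TPM (-0.12). Cenpf (15433 bases of exons), Mki67 and Cenpe are among the 5 longest members, as are Rrm1 and Top2a. The 1214 genes with over 10 kb of exons had a median ratio of 0.05 in MEFs, and all genes one of 0.05. In spleen, Cenpf and Cenpe were higher in the knockout, as given above.

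**Figure D3:**
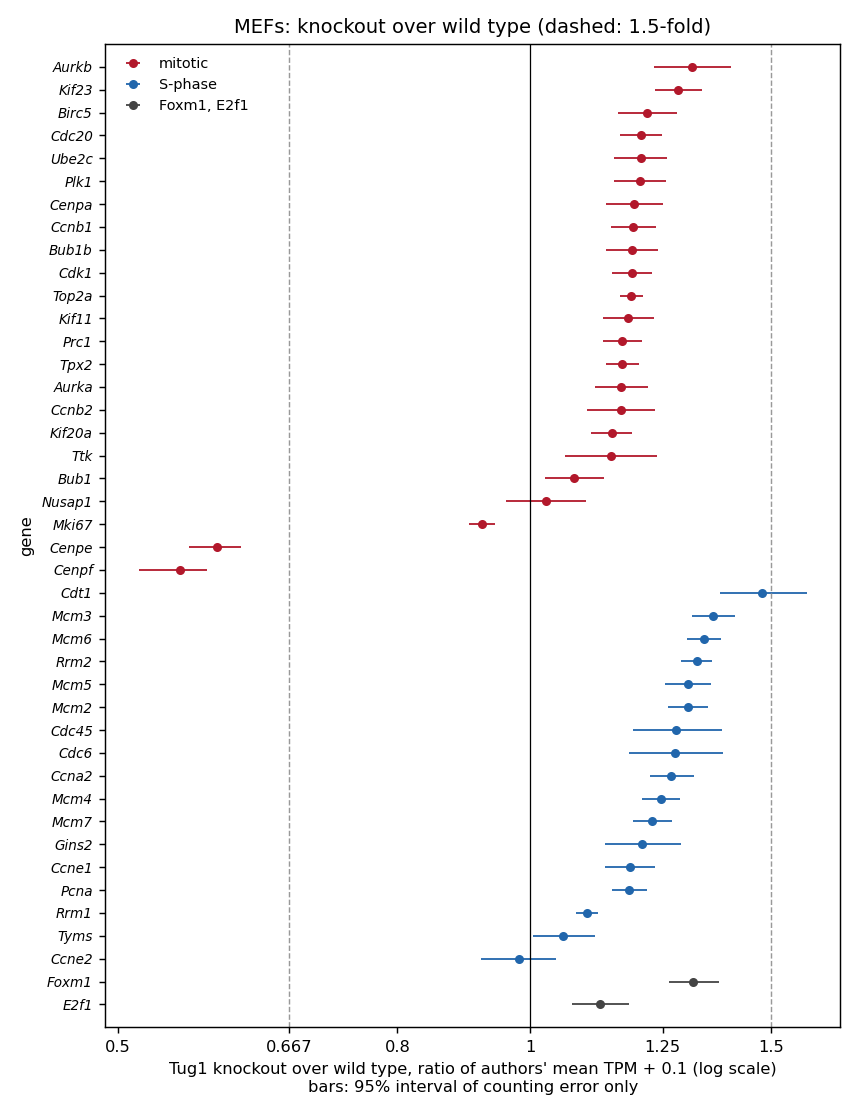
Knockout over wild-type ratio of the 42 genes in MEFs (log axis), with bars for the 95% interval of counting error only. Most genes lie right of 1 and left of 1.5-fold, and Cenpe and Cenpf alone lie past 1.5-fold downward.

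The wider lists in MEFs were in the same range: 36 of 38 other replication genes (median log2 0.30) and 46 of 51 other mitotic genes (0.22) were higher in the knockout, and none was past the fold. Of the cycle's regulators, Mybl2, a transcription factor of late G1, went from 8.75 to 14.4 TPM and Myc, a driver of growth, from 74.99 to 117 TPM. The 8 fibroblast markers had a median of -0.06 (3 above 0, none past the fold, sum 19255 to 19071 TPM). Of 5 macrophage markers of at least 1 TPM in MEFs, 4 were lower in the knockout (median -0.38, sum of the list 359.9 to 289.5 TPM), as C1qa (132 to 99.7 TPM), and Adgre1 was past the fold upward (19.8 to 29.8 TPM). Their part in the members' ratios was not tested. The growth state of each culture was not measured here.

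In knockout testes the members were close to wild type. The mitotic genes had a median log2 of 0.04 (19 of 23 above 0) and the S-phase genes of 0.09 (15 of 17), against 0.03 over all genes, of which 62.1% were above 0. No member was past the fold in either direction, where 2.34% of all 21813 genes were higher and 2.90% lower. The highest ratio was 0.24 for Mcm3 (14.7 to 17.3 TPM), followed by Mcm2 (4.61 to 5.28 TPM, 0.19). The lowest was Kif11, the motor that pushes spindle poles apart, from 36.0 to 29.9 TPM (-0.27), and the other 22 mitotic genes lay between -0.03 and 0.16. The abundant mitotic genes were close to equal: Ccnb2 at 238 and 243.5 TPM, Aurka at 146 TPM in both genotypes, Plk1 at 96.0 and 94.0 TPM and Foxm1 at 105 and 104 TPM. Cdc20 was at 150 and 160 TPM, and Top2a at 74.1 and 78.6 TPM.

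Rescue testes held slightly more of most members than both other groups. For 35 of the 42 genes the rescue mean lay above both wild type and knockout, for 5 it lay between them and for 2 below both. Of all 21766 genes with a mean of the 3 groups of at least 1 TPM, 43.4% lay above both and 30.6% below both. All 17 S-phase genes were among the 35, as were 17 of 23 mitotic genes. Against wild type, the S-phase median was 0.14 (17 of 17 above 0) and the mitotic median 0.10 (21 of 23), against 0.04 over all genes, of which 60.4% were above 0. No member was past the fold, where 2.27% of all 21705 genes were higher and 4.33% lower. Against the knockout the medians were 0.07 and 0.06, against 0.01 over all genes, and again no member was past the fold, where 1.04% of all 21606 genes were higher and 2.56% lower. Both comparisons share the rescue samples, so they are not independent.

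The rescue ratios of largest size were those of 3 S-phase genes and Kif11. Cdt1 went from 2.09 TPM in wild type over 2.31 TPM in knockout to 2.83 TPM in rescue testes (0.42 over wild type). Mcm3 went from 14.7 over 17.3 to 19.2 TPM (0.38) and Mcm2 from 4.61 over 5.28 to 5.84 TPM (0.34). Kif11 went the other way, from 36.0 over 29.9 to 27.4 TPM (-0.39), so the rescue mean was farther from wild type than the knockout mean. Cenpe, at 56.7, 57.1 and 55.7 TPM, was the other gene with its rescue mean below both. Between the groups lay Bub1 (61.5, 65.5 and 64.8 TPM), Ccnb1 (37.9, 39.6 and 38.6 TPM), Nusap1, Ube2c and E2f1.

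**Figure D4:**
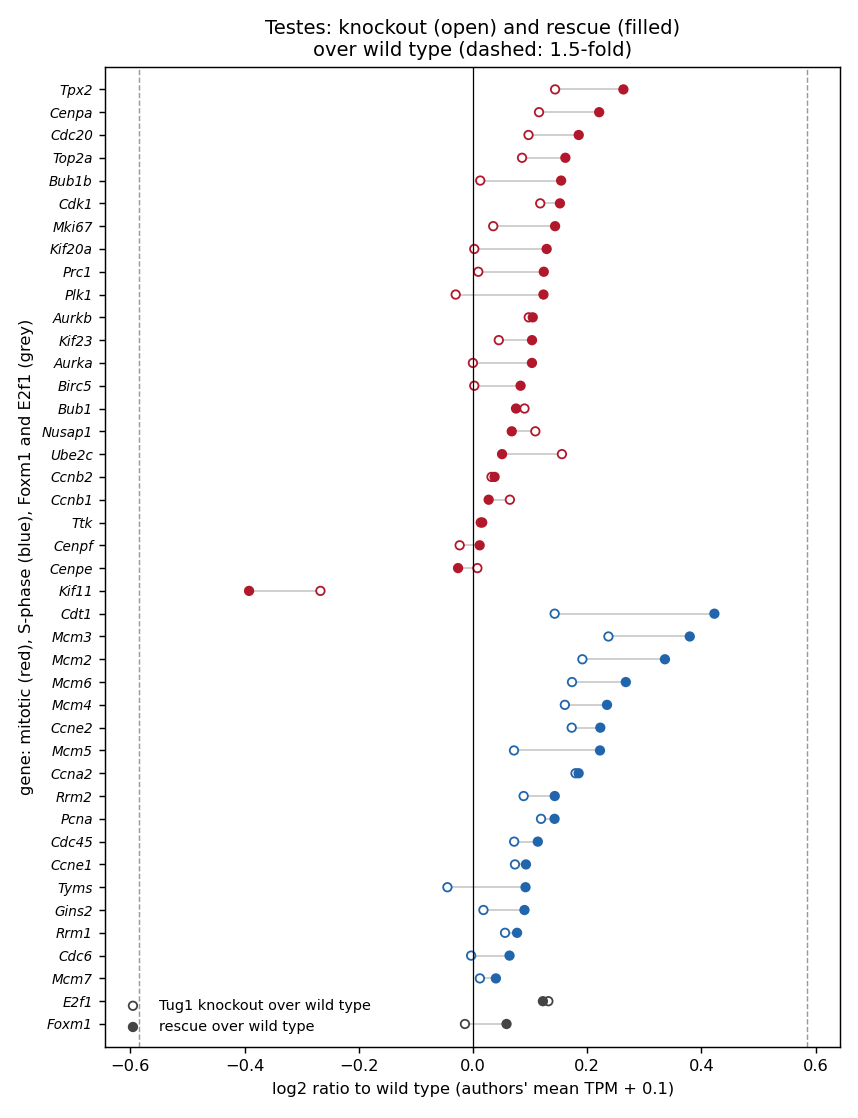
Log2 ratio to wild type in testes for the knockout (open circles) and the rescue (filled circles), 1 row per gene. All points lie within 1.5-fold, the filled circle is right of 0 for all but Kif11 and Cenpe, and Kif11 is lowest in both.

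By median, Sertoli and Leydig markers had higher ratios in knockout testes than the members had, while germ cell markers lay near the members. Single genes overlapped, as the Leydig marker Hsd3b1 (0.08). The 6 Sertoli markers were above 0 in the knockout (median log2 0.47, sum 372 to 539 TPM) and the 5 Leydig markers too (0.73, sum 483 to 742 TPM, 3 past the fold). The 8 spermatocyte markers (0.09, 8 above 0, sum 1197 to 1285 TPM), the 8 spermatogonia markers (0.10, 6 above 0, sum 119 to 124 TPM, 1 past the fold downward) and the 6 spermatid markers (-0.03, 3 above 0, sum 49534 to 47084 TPM) were near the members' values. All 6 macrophage markers were above 0 (0.32, 1 past the fold, sum 55.4 to 70.9 TPM), and of the skeletal muscle markers Acta1 went from 0.3804 to 14.8 TPM. The part of cell makeup or of RNA from other tissue in the members' ratios was not tested. Ccnd2, a G1 cyclin, went from 2.86 to 6.90 TPM, the one gene of the wider lists past the fold in knockout testes.

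In eyes, 5 of 39 members lay above 0, where 27.6% of all genes did, but the reading depends on the scale. The mitotic median was -0.09 and the S-phase median -0.17, against -0.11 over all genes, so the mitotic genes lay at the general level and the S-phase genes 0.06 below it. None was past the fold, where 2.84% of all 19203 genes were higher and 3.82% lower. Ccna2 came nearest, from 20.6 to 13.7 TPM (-0.58, counting interval 0.631 to 0.702-fold), followed by Rrm2 (4.61 to 3.23 TPM, -0.50) and Top2a (4.51 to 3.24 TPM, -0.46). Bub1b, which stood out in wild-type eyes, went from 24.3 to 26.6 TPM (0.13). All 6 helicase subunits were below the general level, from -0.13 (Mcm4) to -0.41 (Mcm5, 9.11 to 6.84 TPM). Melk, a mitotic kinase of the wider lists, went from 4.62 to 2.88 TPM. The 6 eye markers were lower too (-0.37, sum 29200.4 to 25796 TPM), and the 5 skeletal muscle markers were higher (0.82, sum 2047 to 3730 TPM). The part of tissue makeup was not tested.

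In prostate, with 2 knockout samples, the groups lay on opposite sides of 0, but with a minimum of 5 TPM the mitotic median, then of 2 genes, was 0.23, on the side of the S-phase genes. At 1 TPM the mitotic median was -0.14 (4 of 18 above 0) and the S-phase median 0.08 (11 of 16), against 0.04 over all genes, of which 59.0% were above 0. Past the fold there was no member, where 4.67% of all 15110 genes were higher and 2.05% lower. Birc5 was lowest (2.02 to 1.38 TPM, -0.52), and the mitotic gene Top2a went the other way (6.96 to 9.16 TPM, 0.39). Cdc45 had the highest ratio (2.43 to 3.28 TPM, 0.42), followed by Top2a and E2f1 (1.12 to 1.49 TPM, 0.39) and Ccne2 (1.62 to 2.13 TPM, 0.37). The counting interval held 1 for 28 of 42 members, the largest number among the 6 tissues for which intervals were made. Ccnd1, the G1 cyclin D1, went from 51.0 to 83.1 TPM, and Anln, of the cleavage furrow, from 2.89 to 4.78 TPM. The 6 macrophage markers were above 0 (0.64, 4 past the fold, sum 132 to 203 TPM).

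In heart and liver most mitotic genes were under 1 TPM. In heart 9 mitotic genes reached 1 TPM (median log2 0.19, 5 above 0) and 13 S-phase genes did (0.08, 12 above 0), against 0.10 over all genes, of which 75.3% were above 0. Top2a and E2f1 reached the minimum there through their knockout means, so their direction followed from the filter. The mitotic median and the count above 0 include Top2a and so rest in part on it. With a minimum of 5 TPM the mitotic median, then of 2 genes, was -0.066. No member was past the fold there, where 1.67% of all 13701 genes were higher and 1.82% lower. Cenpa and Cenpf, the members that stood out in wild-type heart, went from 13.0 to 11.97 TPM and from 6.53 to 6.45 TPM. Cdkn1a went from 11.5 to 21.4 TPM in heart and E2f2, an activator E2F, from 3.16 to 1.79 TPM. All 6 B cell markers were past the fold downward there (-1.13, sum 45.5 to 20.7 TPM). The macrophage markers were all higher in knockout heart, as C1qa (99.4 to 141.9 TPM), and Cd163 alone was past the fold (11.3 to 20.4 TPM). The part of these cell types in the members' ratios was not tested.

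In liver 3 mitotic genes (Aurka, Cdc20 and Cenpa) and 13 S-phase genes reached 1 TPM. The mitotic median was 0.23 and the S-phase median 0.02, against 0.01 over all genes. Past the fold upward were Cdc20 (0.732 to 1.39 TPM, 0.84, counting interval 1.41 to 2.55-fold) and Ccne1 (1.57 to 2.45 TPM, 0.61, 1.31 to 1.85-fold), where 2.97% of all 11849 genes were. Cdc20 reached the minimum through its knockout mean, so it had to be higher, and the mitotic median rests on it and 2 other genes. With 1 TPM added or a minimum of 5 TPM no member was past the fold. None was past it downward, where 2.25% of all genes were. Of the members under 1 TPM, Mki67 went from 0.489 to 0.821 TPM (1.44 to 1.97-fold) and Top2a from 0.38 to 0.653 TPM (1.43 to 2.08-fold), and with no minimum 11 of 42 members were past the fold, each upward, where 5.93% of all genes were. Rrm2 went from 5.42 to 6.85 TPM and Pcna from 24.3 to 24.7 TPM. Among the G1 genes, Ccnd1 went from 8.76 to 24.7 TPM, and Cdkn1a from 0.981 to 1.92 TPM. Their sum with the other 11 of that list went from 72.0 to 88.1 TPM. All 6 macrophage markers were higher in knockout liver (0.49, 1 past the fold, sum 169 to 243 TPM), and their part in the members' ratios was not tested.

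In brain the mitotic median was -0.15 (3 of 12 above 0) and the S-phase median -0.03 (5 of 15), against -0.02 over all genes, of which 39.8% were above 0. Bub1b alone was past the fold (2.43 to 1.5 TPM, -0.66) and no member was with 1 TPM added or a minimum of 5 TPM. It was past it downward, where 3.0% of all 17244 genes were, and none was past it upward, where 1.72% were. Cenpa reached the minimum there through its wild-type mean. The abundant members were near equal, with Ccne1 at 21.6 and 21.98 TPM, Ccne2 at 13.5 and 13.2 TPM, E2f1 at 12.2 and 12.3 TPM and Pcna at 60.1 and 61.9 TPM. Of the wider lists, the replication helicase Recql4 went from 2.27 to 1.454 TPM.

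**Figure D5:**
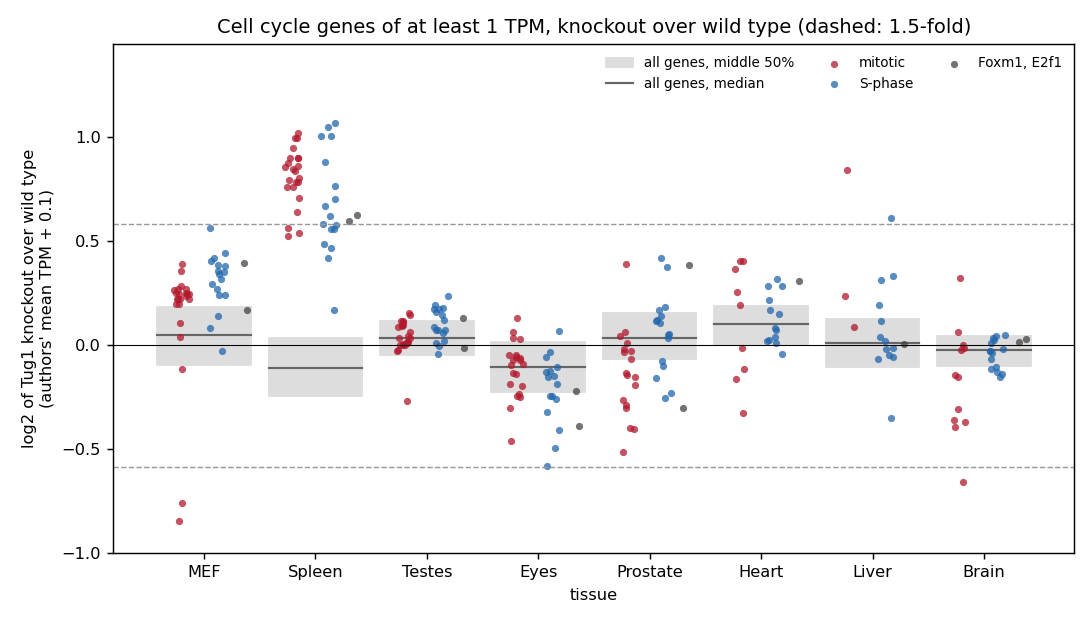
Log2 ratio of knockout over wild type for members of at least 1 TPM (points) in 8 tissues, with the median and middle 50% of all genes in grey. Spleen is the only tissue where all plotted members lie above 0, with medians of 0.84 (mitotic) and 0.62 (S-phase).

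Set side by side, the mitotic and S-phase medians were 0.84 and 0.62 in spleen, 0.24 and 0.34 in MEFs, 0.04 and 0.09 in testes, -0.09 and -0.17 in eyes and -0.14 and 0.08 in prostate. Heart, liver and brain are left out of this comparison, since few mitotic genes reached 1 TPM there and some did so through 1 group. By median, the mitotic genes were thus above the S-phase genes in spleen and eyes, and below them in MEFs, testes and prostate. The gaps in testes and eyes were small. Differences between tissues were not tested, since no values of single samples were at hand and the authors' test statistics were not used.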

How the data were processed

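Poly(A) RNA was sequenced from tissues and MEFs after library preparation with the TruSeq RNA kit v2, which marks no strand. According to the methods of the study, reads were aligned with STAR to mouse GRCm38 and uniquely mapped reads were counted per gene with featureCounts on GENCODE release vM16. Genes were dropped where each replicate held under 3 reads. The submitters' processing notes name mm10 and CASAVA 1.8.2. In testes, the authors deposited the mean TPM of each group. For the 7 other tissues the authors deposited, stacked in 1 table, a mean TPM signal per group and a mean normalized read number over both genotypes. The deposited tables also hold the authors' own fold changes, test statistics and p-values, made with DESeq2, which were not used here. Since single samples have no values of their own in these tables, the depth of a sample is unknown and the spread between samples was not computed.

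Groups followed the labels. Ratios of group means were taken with 0.1 TPM added, and all genes of the same tissue with a mean of both groups of at least 1 TPM served as background. For the 95% counting intervals (Clopper-Pearson), the normalized reads of a gene over all libraries were split between genotypes in proportion to their mean TPM and numbers of samples. Reads are not independent molecules, and these intervals leave out the spread between mice. They could not be made for testes and brain. Exon lengths came from GENCODE vM21 on GRCm38, overlaps from the gene positions in the tables, and promoter windows from RefSeq. The code for ratios and counts was first run on simulated group means with known folds and little added noise. This run checks the arithmetic only, not how the calls hold against the spread between mice. Python 3.11.15 was used, together with pandas 2.3.3, numpy 2.4.6, scipy 1.17.1 and matplotlib 3.10.9.

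The 42 genes, their roles, the lists of other cell cycle genes and the marker lists were chosen with earlier results of these data known. All 42 genes are named. Of the other cell cycle lists, at most 2 genes per comparison were named, those with the largest absolute ratio past 1.5-fold, and Ccna1 and the G1 inhibitors and cyclins named outside this rule were chosen after their values were seen. Marker genes were named from lists that fit the tissue. Alternatives were other added values, minimum levels, folds, a scaling to the median ratio of all genes, and another division of the 42 genes. Of the 42 genes, 16 overlap another gene, 14 of them on the opposite strand, and reads there cannot be assigned by strand.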

Additional observations from a re-analysis of the deposited data

How the results depend on the processing

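Of 119 recomputed medians, 108 stayed within 0.1 log2 of the value given and 5 changed sign. Scaled to the median ratio of all genes, the spleen medians were 0.73 (S-phase) and 0.94 (mitotic), the eye medians -0.064 (S-phase) and 0.013 (mitotic, a change of sign), and the heart medians -0.019 (S-phase, a change of sign) and 0.091 (mitotic). With a minimum of 5 TPM the mitotic median was 0.0075 in eyes (4 genes), 0.23 in prostate (2 genes) and -0.066 in heart (2 genes), each a change of sign, and -0.015 in brain (1 gene). No mitotic gene reached 5 TPM in liver, so no median was taken there. With no minimum the liver mitotic median was 0.46. At a ratio of 5 to 4, members past the fold numbered 14 in MEFs, 6 in eyes, 7 in prostate, 4 in heart, 4 in liver, 5 in brain and 4 in rescue over wild-type testes. Of all genes, 19.6%, 19.9%, 17.01%, 11.2%, 16.3%, 11.0% and 16.1% were past it in either direction in the same order. At a fold of 2 they numbered 0 in MEFs, 5 in spleen (2.9% of all genes), 0 in liver and 0 in brain. With no minimum they numbered 11 in liver (10.1% of all genes) and 2 in brain (12.6%), and with 1 TPM added or a minimum of 5 TPM, 0 in both. With 0.01 TPM added, 1 was past it in eyes (7.12% of all genes). The changes under another fold follow from the threshold, those under another minimum from the genes counted, and the cause of the others was not tested. No paired analysis was possible because the tables hold group means only, and for the same reason no replicate could be left out in turn. Counting intervals held 1 for 17 (eyes), 28 (prostate), 19 (heart) and 22 (liver) of 42 members.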

Other observations

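The 13 inhibitors, cyclins and kinases of G1 had a median log2 of -0.05 in MEFs (6 above 0), and those named here were chosen after their values were seen. The inhibitor Cdkn1a (p21), at 1156 TPM in wild-type and 1118 TPM in knockout MEFs, was far more abundant than any of the 42 genes. Cdkn2a and Cdkn2b, inhibitors of the cyclin D kinases, had means of 115 and 93.1 TPM and of 227 and 168 TPM. Cdkn1c (p57) had means of 35.4 and 23.4 TPM and was the one gene of its list past 1.5-fold in MEFs, downward. Among the D-type cyclins, Ccnd1 had means of 166 and 214 TPM and Ccnd2 of 652 and 608 TPM. In spleen, Ccnd3 had means of 40.1 and 57.8 TPM, while Ccnd2 had means of 71.2 and 63.5 TPM.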
